A study of Mus musculus with 21 samples.

Results

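Peaks of estrogen receptor α (ERα), the receptor that binds estradiol, were examined at 35 mouse genes that encode other members of the nuclear receptor superfamily, out of 21631 protein-coding genes on chromosomes 1 to 19 and X. The 35 genes were chosen by name, with earlier results of these data known: the retinoid X receptors, the thyroid hormone receptors, the retinoic acid receptors β and γ, PPARα and PPARδ, RORα and RORβ, the LXR, FXR, PXR, CAR and vitamin D receptors, the HNF4 and NR5A receptors, the NR2 orphan receptors, the NR4A receptors, and Nr6a1, Nr0b1 and Nr0b2. A gene had a peak when a peak summit lay inside its span on GRCm38.p6, the assembly of mm10, or within 25 kb of it. The 14 other nuclear receptors, among them the steroid receptors and PPARγ, formed a list for comparison.

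Chromatin immunoprecipitation and sequencing (ChIP-seq) for ERα was done on tissue of CD-1 mice aged 10 weeks. The groups were vWAT after estradiol (4 libraries), vWAT after vehicle (2 libraries), and scWAT (3 libraries), BAT (1 library) and Liver (2 libraries) after estradiol, with the tissues named as in the labels. Each group had 1 deposited peak list, so replicate spread is missing from every value below and no replicate test could be made. The 95% Wilson intervals given with shares cover counting error over genes or peaks only, and the read depth behind the lists is unknown. The lists held 20715, 7400, 17971, 5193 and 21411 peaks in the order above. Enrichment was taken from the authors per peak, and values were compared within a list only.

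Nuclear receptors are transcription factors that share a DNA-binding domain and, in most cases, a pocket for a small lipophilic ligand. Many of those listed here bind DNA as a pair with a retinoid X receptor, whereas ERα binds as a pair with itself, at best to an inverted repeat of AGGTCA with a 3-base gap. In fat, PPAR, LXR and thyroid hormone receptors control genes of lipid storage and burning. In liver, HNF4, FXR, PXR, CAR and the repressor SHP (Nr0b2) control genes of bile acids, lipids and drug clearance.

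With estradiol, 23 of the 35 receptor genes had an ERα peak in vWAT, 21 in scWAT, 11 in BAT and 30 in Liver, and 17 had one in vWAT with vehicle. In vWAT with estradiol this was 65.7% of the receptor genes (interval 49.2 to 79.2), beside 61.5% of all protein-coding genes and 67.7% of genes of like span. Longer genes hold more peaks by length alone, and like span means genes in the same one of 20 bins of span length. In vWAT with vehicle the share was 48.6% (33.0 to 64.4), beside 44.8% of all genes and 48.0% of genes of like span. In scWAT it was 60% (43.6 to 74.4), beside 61% and 66.7%. The BAT share, near the background like those before it, was 31.4% (18.6 to 48.0), beside 29.7% of all genes and 33.5% of like span. The Liver share was 85.7% (70.6 to 93.7), beside 67.5% of all genes and 74.9% of like span, and the value for like span lay inside the interval. In such tissue samples a smaller number of cells that hold ERα and less ERα on the DNA of each cell cannot be told apart.

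**Figure D1:**
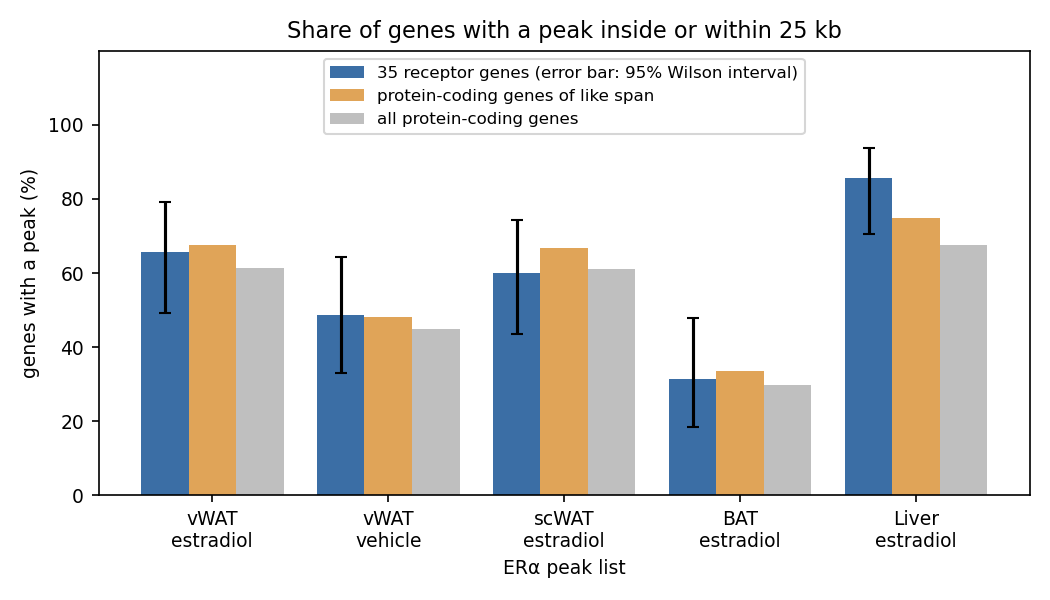
Share of genes with an ERα peak inside their span or within 25 kb (y axis, percent) in each of the 5 peak lists (x axis), for the 35 receptor genes, for protein-coding genes of like span and for all protein-coding genes. The error bars are 95% Wilson intervals over the 35 genes, and the value for genes of like span lies inside them in every list.

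At least 1 of the 5 lists held a peak for 31 of the 35 genes, beside 80% of all genes and 87.4% of genes of like span. The 4 genes without any peak were Nr1h5, the FXRβ gene, Nr2e1 (TLX) and Nr2e3, receptors of brain and retina, and Nr2f2 (COUP-TFII), a receptor of stromal and vascular cells. Their spans ran from 14.8 kb for Nr2f2 to 24.6 kb for Nr1h5, with a median span of 41.3 kb over the 35 genes and 17.3 kb over all protein-coding genes. All 5 lists held a peak for 10 genes, Rxra, Thra, Ppara, Rora, Nr1h3, Nr2c1, Nr2c2, Nr2f6, Nr4a1 and Nr6a1, beside 21.1% of all genes and 22.7% of like span, which corresponds to 7.93 of 35. Merging peaks that overlapped between lists gave 174 distinct loci at the receptor genes, of which 130 were in 1 list (74.7%) and 5 in all 5 lists (2.87%), beside 69.8% and 3.80% of loci near any protein-coding gene.

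**Figure D2:**
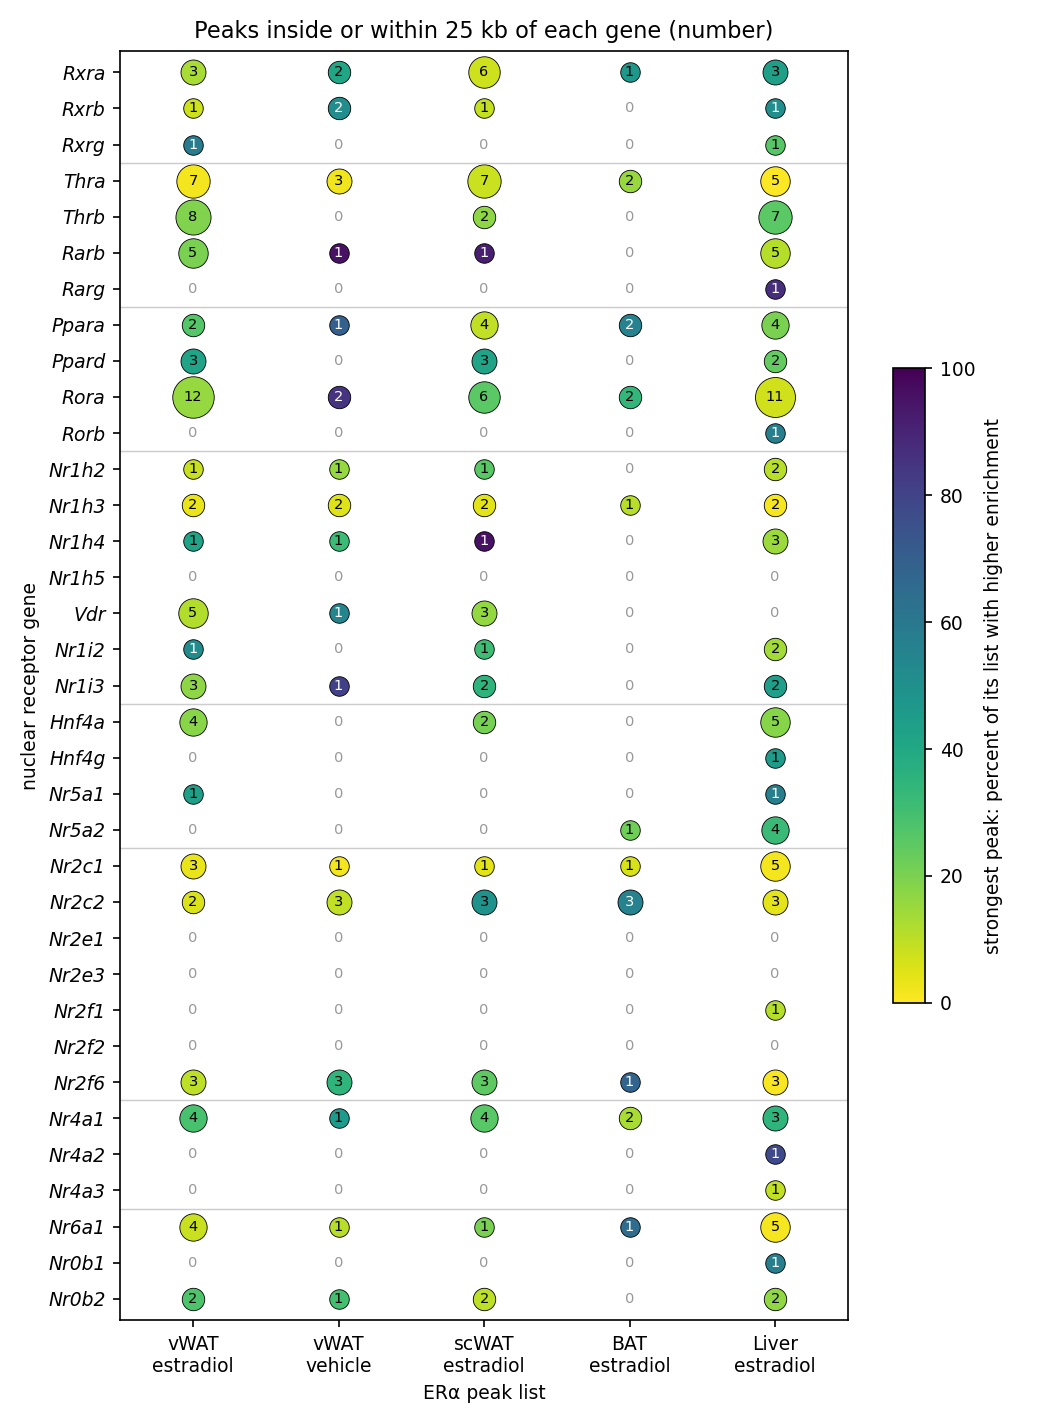
Number of ERα peaks inside or within 25 kb of each of the 35 receptor genes (rows, grouped by role) in the 5 peak lists (columns). Circle area grows with the number, 0 marks no peak, and colour gives the percent of the list's peaks with a higher enrichment than the gene's strongest peak: Thra, Nr1h3 and Nr2c1 stand high in all 5 lists, and the Liver column has the fewest zeros.

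Some of the strongest peaks lay at the start of a neighbouring gene, which the window of 25 kb allows at any gene. Taking the strongest vWAT estradiol peak of each gene and the 12 genes with the largest enrichment, 8 of the 12 summits lay within 1 kb of an end of some protein-coding gene. For 6 of the 12 the nearest listed start was that of another gene and lay within 1 kb. The same share over other genes is not given here, so this count does not set the receptor genes apart. Rxrb, Nr1h2 and Nr6a1 had theirs within 1 kb of their own listed start, which at Rxrb was farther than that of the neighbour. Of the 12 loci, 9 were also in the vehicle list. Over all vWAT estradiol peaks near a protein-coding gene with at least the enrichment of the weakest of the 12, 46.3% lay within 1 kb of a gene end and 59.6% were in the vehicle list. Distances of a locus from a gene are those of its vWAT estradiol summit where it had one. Over all vWAT estradiol peaks and genes with a listed start, 33 of 70 pairs of receptor gene and peak had the receptor's own start as the nearest listed one (47.1%), beside 54.0% of pairs over all genes. The same share was 29.2% in the vehicle list (7 of 24) beside 46.2% over all genes, 53.1% in scWAT beside 51.6%, 40% in BAT beside 50.1%, and 64.2% in Liver (52 of 81) beside 53.3%. Starts were listed for 32 of the 35 genes, and those of Thra, Hnf4g and Nr5a1 were not used here.

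**Figure D3:**
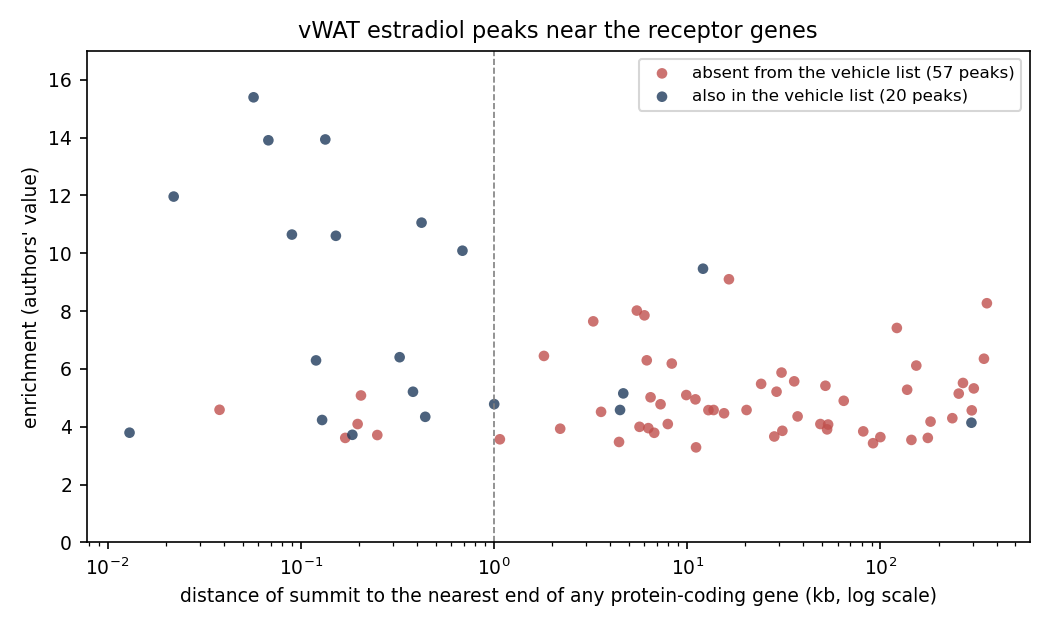
Enrichment of the 77 vWAT estradiol peaks near the receptor genes (y axis, the authors' value) against the distance of the summit from the nearest end of any protein-coding gene (x axis, kb, log scale, dashed line at 1 kb), with peaks also in the vehicle list in blue and the others in red. The 8 peaks with an enrichment above 10 all lie within 1 kb of a gene end and are all in the vehicle list as well, beside 51.7% and 68.2% of such peaks near any protein-coding gene.

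The 3 retinoid X receptor genes encode the shared partners of many of the other receptors. All 3 had a vWAT estradiol peak, beside 61.5% of all genes. Rxra (RXRα), on chr2:27676445-27763319, had 3 peaks in vWAT with estradiol, 2 with vehicle, 6 in scWAT, 1 in BAT and 3 in Liver. Its strongest vWAT estradiol peak, at chr2:27779477-27780029, lay 16.45 kb beyond the gene with an enrichment of 9.10 and was also listed in scWAT with 6.38, but not with vehicle or in Liver. A second locus inside the gene, 4.67 kb from its end, was listed with estradiol (5.15), with vehicle (4.77), in scWAT (3.43) and in Liver (4.09). A vehicle peak of 5.09 inside the gene was absent from the vWAT estradiol list and met a BAT peak of 4.32. The strongest scWAT peak, 7.92 at chr2:27703412-27704007 inside the gene, was in no other list. Rxra thus combined a locus listed under both treatments with others found under 1 treatment. Rxrb (RXRβ), on chr17:34031812-34038403, had its vWAT estradiol peak (11.1) 0.544 kb outside the gene, beside the start of Slc39a7, which lay 0.422 kb away. The same locus was listed with vehicle at 4.73, in scWAT at 7.42 and in Liver at 3.86, and a second vehicle peak of 3.51 was absent with estradiol. Rxrg (RXRγ) had 1 peak with estradiol in vWAT (4.58) and 1 in Liver (4.74), which overlapped, with summits 0.389 and 0.028 kb from a listed start.

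Among the 4 thyroid hormone and retinoic acid receptor genes, 3 had a vWAT estradiol peak, beside 61.5% of all genes. Thra (thyroid hormone receptor α), on chr11:98740776-98769006, had 7 peaks in vWAT with estradiol, 3 with vehicle, 7 in scWAT, 2 in BAT and 5 in Liver. Its strongest locus, chr11:98729070-98729783, was in all 5 lists, with an enrichment of 15.4 in vWAT with estradiol, 16.9 with vehicle, 7.85 in scWAT, 5.63 in BAT and 15.7 in Liver. That locus lay 11.4 kb outside Thra and 0.057 kb from an end of Med24, which encodes a Mediator subunit. Inside Thra, 1 locus was listed in vWAT with estradiol (4.57), in scWAT (4.86) and in Liver (3.33), and not with vehicle. Several other peaks in the window lay nearest to Nr1d1, the REV-ERBα gene that overlaps the end of Thra, 1 of them 0.013 kb from the Nr1d1 start. Thrb (thyroid hormone receptor β) had 8 vWAT estradiol peaks of up to 7.64, none with vehicle, 2 in scWAT and 7 in Liver. Rarb (retinoic acid receptor β) had 5 of up to 7.42 with estradiol, 1 vehicle peak of 3.33 that was absent with estradiol, 1 in scWAT (2.65), none in BAT and 5 in Liver of up to 6.16. Rarg (retinoic acid receptor γ) had a single peak, in Liver, with 3.23.

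Of the fatty acid receptors and RORs, 3 of 4 had a vWAT estradiol peak, beside 61.5% of all genes. Ppara (PPARα, a regulator of fatty acid oxidation), on chr15:85734910-85806851, had 2 peaks in vWAT with estradiol, 1 with vehicle, 4 in scWAT, 2 in BAT and 4 in Liver. Its strongest vWAT peak lay 0.948 kb from a listed Ppara start with 6.45 and was also listed in scWAT with 7.23, and no vehicle, BAT or Liver peak met it. In Liver, Ppara had peaks of 4.66, 5.13 and 4.5 that no fat list held. The vehicle peak (4.18) lay beside Cdpf1, where vWAT with estradiol had a peak of 3.61 that did not overlap it, BAT its strongest Ppara peak (4.15) and Liver one of 4.01. Ppard (PPARδ) had 3 peaks in vWAT with estradiol of up to 5.21, none with vehicle or in BAT, 3 in scWAT and 2 in Liver. Rora (RORα, which binds single AGGTCA elements and acts in the clock and in lipid metabolism) had 12 peaks in vWAT with estradiol, 2 with vehicle, 6 in scWAT, 2 in BAT and 11 in Liver. The strongest enrichments at Rora were 8.27, 3.77, 4.54, 4.51 and 7.37 in these lists. The Liver value of 7.37 lay outside Rora, 0.091 kb from the start of Ice2. Rorb (RORβ) had a single peak, in Liver, with 3.33, 0.325 kb from its start.

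The oxysterol, bile acid, vitamin D and xenobiotic receptors had a vWAT estradiol peak at 6 of 7 genes and a Liver peak at 5 of 7. Over all genes these shares were 61.5% and 67.5%. Nr1h3 (LXRα, the oxysterol receptor that drives lipogenic and cholesterol efflux genes), on chr2:91184061-91202829, was listed at chr2:91202522-91203277 in all 5 lists. The enrichment there was 13.9 in vWAT with estradiol, 13.9 with vehicle, 9.58 in scWAT, 6.29 in BAT and 13.6 in Liver. The summit lay 0.068 kb outside the upstream end of Nr1h3 and 0.015 kb from the start of Acp2, a lysosomal phosphatase gene. A second Nr1h3 locus beside Madd was listed in vWAT with estradiol (4.34), with vehicle (4.52), in scWAT (3.16) and in Liver (5.42). Both loci were thus listed with and without the hormone. Nr1h2 (LXRβ), on chr7:44549616-44553968, had its peak at its own start, with 10.6 in vWAT with estradiol, 9.10 with vehicle, 4.48 in scWAT and 5.31 in Liver. A stronger Liver peak in its window (6.22) lay 0.029 kb from the start of Pold1.

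Nr1h4 (FXR, the bile acid receptor) had 1 peak in vWAT with estradiol (5.21), 1 with vehicle (5.89) and 1 in scWAT (2.56), all at the neighbouring gene Gas2l3. In Liver, where FXR acts in bile acid control, Nr1h4 had its strongest peak (5.63) at the same Gas2l3 locus. A peak of 4.31 lay inside the gene and one of 4.03 at its upstream end, 26.8 kb upstream of the listed start. Vdr (vitamin D receptor), on chr15:97854427-97908296, had 5 peaks in vWAT with estradiol, 1 with vehicle, 3 in scWAT and none in BAT or Liver. Its strongest vWAT locus, with 9.46 in vWAT with estradiol, 4.58 with vehicle and 3.18 in scWAT, lay 22.0 kb from the gene and 0.657 kb from a listed start of Hdac7, a histone deacetylase gene. The strongest scWAT peak of Vdr (5.65) lay at another locus 16.1 kb from the gene, with 6.30 in vWAT with estradiol and none with vehicle. A peak of 5.02 in vWAT with estradiol lay 6.46 kb upstream of the Vdr start and was in no other list. Nr1i2 (PXR, a sensor of drugs and bile acids) had a peak 10.2 kb upstream of its start in vWAT with estradiol (4.78) and scWAT (4.12), and its 2 Liver peaks (5.75 and 3.71) lay elsewhere, inside the gene. The fat and Liver lists thus shared no locus at Nr1i2. Nr1i3 (CAR, the other xenobiotic sensor) had 3 vWAT peaks with estradiol, the strongest (8.02) 21.5 kb beyond the gene and also in scWAT (3.94). Its vehicle peak had 3.87, and it had no BAT peak. In Liver its peaks, 4.06 placed 9.12 kb outside the gene and 3.38 placed 0.131 kb from the Nr1i3 start, were in no fat list.

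The HNF4 and NR5A receptors bind DNA without a classical hormone, and HNF4α and LRH-1 (Nr5a2) are known for their part in liver gene control. All 4 genes had a Liver peak, 2 had a vWAT estradiol peak and none had a vehicle peak. Over all protein-coding genes these shares were 67.5%, 61.5% and 44.8%. Hnf4a had 4 peaks in vWAT with estradiol of up to 7.85, 2 in scWAT of up to 4.98 and 5 in Liver of up to 5.31. None of its Liver peaks overlapped a peak of a fat list. Nr5a2 had 4 peaks in Liver of up to 4.51, 1 of them 0.29 kb upstream of a start, and 1 in BAT (5.15) at another place. Hnf4g (HNF4γ) had a single peak, in Liver, with 4.04. Nr5a1 (SF-1, the regulator of steroid-producing tissue) had 1 peak in vWAT with estradiol (5.10) and 1 in Liver (3.33). Both of these peaks also fell in the window of Nr6a1, the gene next to it.

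Of the 7 NR2 orphan receptor genes, 3 had peaks in all 5 lists, 1 in Liver alone and 3 in none. Over all genes, 21.1% had peaks in all 5 lists, 7.72% in Liver alone and 80% in at least 1 list. Nr2c1 (TR2), on chr10:94147542-94197216, had its strongest peak at chr10:94198647-94199351 in every list, with 13.9 in vWAT with estradiol, 17.3 with vehicle, 9.53 in scWAT, 7.57 in BAT and 12.9 in Liver. The summit lay 1.69 kb outside Nr2c1 and 0.134 kb from the start of Ndufa12, a gene of respiratory complex I. At the Nr2c1 start itself, vWAT with estradiol had a peak of 4.09 and Liver one of 5.79. Nr2c2 (TR4, the closest relative of TR2), on chr6:92091418-92173058, had a locus in all 5 lists 0.022 kb from the start of Mrps25, a mitochondrial ribosomal protein gene. Its values there were 11.96 in vWAT with estradiol, 11.4 with vehicle, 2.62 in scWAT, 3.90 in BAT and 9.84 in Liver. The listed start of Nr2c2 carried a weaker locus, with 4.78 in vWAT with estradiol, 6.78 with vehicle, 2.60 in scWAT and 3.60 in Liver. Another vehicle peak of Nr2c2 (3.77) was absent with estradiol. The strongest Nr2c2 peaks of scWAT (3.46) and BAT (4.14) lay elsewhere, 1.52 kb upstream of its start and inside the gene.

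Nr2f6 (EAR2), on chr8:71374118-71381967, had a locus in all 5 lists 14.9 kb from the gene and 0.003 kb from a start of Babam1, a gene of DNA repair. Its values there were 10.1 in vWAT with estradiol, 5.65 with vehicle, 4.598 in scWAT, 3.90 in BAT and 14.8 in Liver. The peak of vWAT with estradiol nearest to Nr2f6 itself had 3.57 and was listed in scWAT (3.09) and Liver (4.68), and not with vehicle. A vehicle peak of 4.62 beside Ocel1 was absent with estradiol. Nr2f1 (COUP-TFI) had a single peak, in Liver, with 6.16, 21.5 kb upstream of its start. The strongest vWAT and Liver peaks of Nr2c1, Nr2c2 and Nr2f6 thus all lay at the start of another gene.

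The NR4A receptors are immediate early genes that signals such as adrenergic stimulation switch on quickly. Nr4a1 (NUR77) had 4 peaks in vWAT with estradiol, 1 with vehicle, 4 in scWAT, 2 in BAT and 3 in Liver. Its strongest vWAT estradiol and BAT peaks stood at 1 locus 12.8 kb outside the gene, which had 6.18 in vWAT with estradiol, 4.31 in scWAT and 5.89 in BAT, and was not listed with vehicle or in Liver. The vehicle peak (4.97) lay beside Atg101 and overlapped peaks of vWAT with estradiol (3.72), scWAT (4.47, its strongest there) and Liver (3.70). A locus inside Nr4a1 had 3.22 in scWAT, 4.58 in BAT and 4.32 in Liver, and no vWAT peak. Nr4a2 (NURR1) and Nr4a3 (NOR1) had 1 peak each, both in Liver, with 3.31 and 6.54, the latter 0.395 kb upstream of the Nr4a3 start.

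Nr6a1, germ cell nuclear factor, and the repressors Nr0b1 (DAX1) and Nr0b2 (SHP), which lack the usual DNA-binding domain, complete the 35. Nr6a1, on chr2:38723369-38926461, had its strongest locus 0.152 kb upstream of its own start, with 10.6 in vWAT with estradiol, 10.9 with vehicle, 5.08 in scWAT and 13.8 in Liver. The BAT peak of Nr6a1 (3.98) lay elsewhere, inside the gene. Nr0b2 had a locus 0.12 kb from the start of Nudc with 6.29 in vWAT with estradiol, 6.17 with vehicle and 5.42 in Liver. At the Nr0b2 gene itself, Liver had a peak of 3.95 placed 0.278 kb upstream of the start, and scWAT one of 7.03 placed 0.87 kb beyond the other end. Nr0b1 had a single peak, in Liver, with 3.33.

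A summit within 1 kb of the gene's own listed start was found for 8 of the 32 genes with a listed start in vWAT with estradiol, beside 27.1% of all genes, and for 4 with vehicle, beside 22.8%. The count was 5 in scWAT beside 28%, 0 in BAT beside 10.6%, and 12 in Liver (37.5%) beside 29.4%. The promoter windows below, 250 bases before to 50 after the start site, are RefSeq sequence on GRCm38.p6 and are shown because a peak overlapped each of them. Positions count from 1 at the 5′ end of a window. Capitals mark GGTCA, an arm of the estrogen response element, or TGACC, its reverse complement. The first 3 windows lay under peaks listed with and without estradiol, at Nr1h2 (chr7:44553916-44554215, minus strand), the outer start of Nr6a1 (chr2:38926412-38926711, minus strand) and Nr2c2 (chr6:92092183-92092482, plus strand), and none of them held the element.
Nr1h2: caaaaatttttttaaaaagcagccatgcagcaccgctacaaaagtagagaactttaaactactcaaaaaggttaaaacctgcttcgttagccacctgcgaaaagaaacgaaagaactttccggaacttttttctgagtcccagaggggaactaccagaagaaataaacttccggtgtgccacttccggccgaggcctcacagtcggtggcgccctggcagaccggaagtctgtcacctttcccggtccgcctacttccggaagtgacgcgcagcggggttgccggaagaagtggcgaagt
Nr6a1 outer start: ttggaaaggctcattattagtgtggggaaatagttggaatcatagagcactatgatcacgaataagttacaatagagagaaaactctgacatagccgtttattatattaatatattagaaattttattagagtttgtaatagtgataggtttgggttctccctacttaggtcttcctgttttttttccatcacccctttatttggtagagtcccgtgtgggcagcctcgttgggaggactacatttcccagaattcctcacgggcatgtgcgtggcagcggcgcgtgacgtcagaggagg
Nr2c2: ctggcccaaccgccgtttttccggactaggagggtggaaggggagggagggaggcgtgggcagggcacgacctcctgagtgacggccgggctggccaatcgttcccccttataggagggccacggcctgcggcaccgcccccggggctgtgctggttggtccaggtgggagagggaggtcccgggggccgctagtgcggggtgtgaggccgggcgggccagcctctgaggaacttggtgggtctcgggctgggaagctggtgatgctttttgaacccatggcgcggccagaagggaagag

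Liver peaks overlapped 11 of the 43 windows, and 4 of the 11 held GGTCA. Under Liver peaks alone, the windows of Nr1i3, Rxrb and Rorb held no copy and that of Rxrg held 1. The next 3 windows, also under Liver peaks alone, were picked because they held copies. They belong to the inner start of Nr6a1 (chr2:38784466-38784765, minus strand, Liver peak of 4.58), Nr0b2 (chr4:133553126-133553425, plus strand, 3.95) and Nr5a2 (chr1:136960399-136960698, minus strand, 3.94), and held 3, 1 and 3 copies. In Nr5a2 the first pair of copies faced each other with a 2-base gap, as GGTCA, 2 bases and TGACC from position 103 of the window, a spelling held by 32 of 32851 promoter windows (0.0974%) and by no other window of the receptor genes.
Nr6a1 inner start: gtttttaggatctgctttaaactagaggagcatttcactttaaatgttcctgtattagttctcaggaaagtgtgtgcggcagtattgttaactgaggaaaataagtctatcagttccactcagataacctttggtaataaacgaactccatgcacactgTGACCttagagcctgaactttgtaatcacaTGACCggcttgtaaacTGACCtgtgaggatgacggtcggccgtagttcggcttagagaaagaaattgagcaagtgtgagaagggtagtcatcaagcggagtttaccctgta
Nr0b2: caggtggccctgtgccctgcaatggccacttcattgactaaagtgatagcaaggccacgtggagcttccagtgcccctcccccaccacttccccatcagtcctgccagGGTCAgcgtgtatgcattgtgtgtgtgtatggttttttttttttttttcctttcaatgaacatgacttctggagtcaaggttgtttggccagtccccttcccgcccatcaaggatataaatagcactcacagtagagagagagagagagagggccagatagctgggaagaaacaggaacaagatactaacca
Nr5a2: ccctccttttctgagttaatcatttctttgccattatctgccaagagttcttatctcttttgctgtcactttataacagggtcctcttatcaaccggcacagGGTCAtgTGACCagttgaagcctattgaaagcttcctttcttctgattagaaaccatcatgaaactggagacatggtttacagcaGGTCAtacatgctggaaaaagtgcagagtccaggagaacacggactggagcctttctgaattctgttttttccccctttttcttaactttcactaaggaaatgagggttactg

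The last window, that of Rarb (chr14:16575427-16575726, minus strand), lay under a peak of vWAT with estradiol alone, with 3.54. It held 1 copy of GGTCA at position 169. At position 199 it held GTTCA, 5 bases and AGTTCA, the letters of the retinoic acid response element for which this promoter is known, which 11 of 32851 windows held on either strand (0.0335%).
Rarb: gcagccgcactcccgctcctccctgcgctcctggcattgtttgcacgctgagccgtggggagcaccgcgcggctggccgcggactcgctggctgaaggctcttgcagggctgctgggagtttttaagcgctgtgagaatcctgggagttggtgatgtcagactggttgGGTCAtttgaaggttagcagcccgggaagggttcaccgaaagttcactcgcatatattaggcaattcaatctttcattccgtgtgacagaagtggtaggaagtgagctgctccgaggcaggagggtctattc

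Over the 43 windows of the 32 genes, GGTCA on either strand was found in 16 (37.2%), beside 40.5% of all 32851 windows. The palindrome of GGTCA, 3 bases and TGACC, the core of the estrogen response element, was in none of the 43, and in 0.0700% of all windows. The AP-1 letters TGANTCA, which by spelling cannot overlap GGTCA, were in 2 windows, at Nr1i3 and Rorb (4.65%), beside 7.81%. A match is a description of letters, not of a binding site, and sequence of peaks beyond the promoters was not analysed here.

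In vWAT, estradiol and vehicle lists were compared by overlap of at least 1 bp. Of the 77 distinct vWAT estradiol peaks at the receptor genes, 20 were also listed with vehicle (25.97%, interval 17.5 to 36.7), beside 26.2% of peaks near any protein-coding gene. The other 57 were in the estradiol list only, and 18 of the 35 genes had at least 1 of them, beside 46.3% of all genes and 52.8% of genes of like span. A peak listed under both treatments was found at 15 genes, beside 34.9% of all genes and 36.2% of like span. The peaks of both treatments were the stronger ones, with a median enrichment of 6.35 against 4.58 for estradiol-only peaks, and over all vWAT estradiol peaks the medians were 6.70 and 4.59. Of the 20 peaks, 15 lay within 1 kb of an end of a protein-coding gene, against 5 of the 57, while over all peaks the shares were 62.5% and 12.8%. The vehicle list held 27 peaks at the receptor genes, and 20 of them overlapped an estradiol peak (74.1%, interval 55.3 to 86.8), beside 65.6% near any gene. The 7 others stood 1 each at Rxra, Rxrb, Rarb, Ppara, Rora, Nr2c2 and Nr2f6, beside 17.7% of all genes with such a peak and 19.9% of like span. Their enrichment ran from 3.33 to 5.09.

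The 2 vWAT lists differ in length. With both held to 7400 peaks by p-value, 52.4% of vWAT estradiol peaks at the receptor genes were also listed with vehicle, beside 39.8% over all peaks. Of vehicle peaks there, 40.7% were found with estradiol, beside 40.1%. All peaks, not those near a gene, are the comparison here, and at full length their shares were 22.7% and 63.8%. The cut estradiol list held fewer than 77 peaks at the receptor genes, so the 52.4% rests on fewer peaks.

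**Figure D4:**
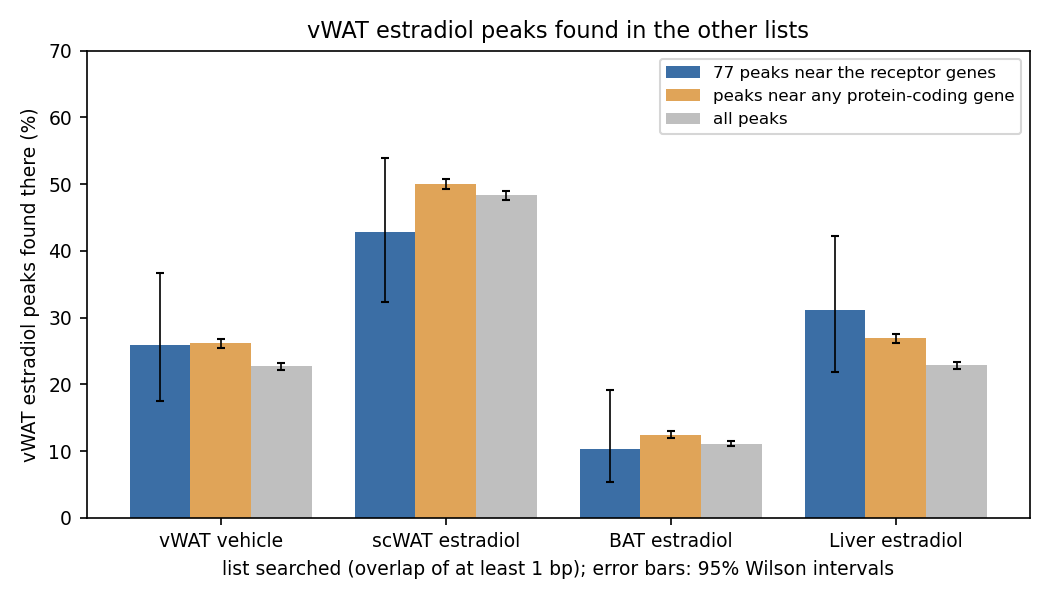
Share of vWAT estradiol peaks (y axis, percent) that overlap a peak of the vWAT vehicle, scWAT, BAT or Liver list (x axis), for the 77 peaks near the receptor genes, for peaks near any protein-coding gene and for all peaks, with 95% Wilson intervals over peaks. The shares at the receptor genes were 25.97%, 42.9%, 10.4% and 31.2%, and the shares of peaks near any gene lay inside their intervals.

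Across tissues, 33 of the 77 vWAT estradiol peaks were also in scWAT (42.9%), beside 50.03% of peaks near any gene, 8 in BAT (10.4%), beside 12.4%, and 24 in Liver (31.2%), beside 26.9%. In no other estradiol list were 37 (48.1%), beside 43.3%, and 5 were in all 4 estradiol lists, those beside Med24, Acp2, Ndufa12, Mrps25 and Babam1. Of the 87 Liver peaks at the receptor genes, 61 were in no other estradiol list (70.1%, interval 59.8 to 78.7), beside 67.1% of Liver peaks near any gene. The BAT list, the shortest, placed 17 peaks at these genes.

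Liver was the only list with a peak for 7 genes, Rarg, Rorb, Hnf4g, Nr2f1, Nr4a2, Nr4a3 and Nr0b1, or 20% of the 35 (interval 10.0 to 35.9), beside 7.72% of all genes and 7.84% of like span, which corresponds to 2.74 of 35. This set was formed after its values were seen, and no test was made on it. Each of the 7 had 1 Liver peak. At 4 of them it had 3.33, the most frequent enrichment in the Liver list, or less: Rorb and Nr0b1 with 3.33, Nr4a2 with 3.31 and Rarg with 3.23. With peaks of a −log10 q-value of at least 2 only, 3 genes were left, Hnf4g, Nr2f1 and Nr4a3, beside 4.41% of all genes. Vdr alone had a fat peak and no Liver peak, where 12.5% of all genes did, which corresponds to 4.39 of 35 by span.

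The number of peaks was high at 3 very long genes. The 35 genes took 78 pairs of gene and peak in vWAT with estradiol, where genes of like span would take 57.0, and 88 in Liver, where they would take 58.3. Pairs numbered 27 with vehicle (24.8 by span), 56 in scWAT (51.9) and 17 in BAT (15.0). Thrb, Rarb and Rora, with spans of 381, 651 and 735 kb, held 25 of the 78 and 23 of the 88. The top bin of span also holds genes of under 300 kb, so the like-span value is a loose match for these 3. The other 32 genes held 53 in vWAT with estradiol, beside 48.4 by span, and 65 in Liver, beside 49.3. The 3 genes were singled out by span after their counts were seen.

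Within genes of at least 300 kb, of which there were 557, the median was 0.247 vWAT estradiol peaks per 100 kb. Thrb had 2.10 per 100 kb, and 5.92% of the long genes had more. Rora had 1.63, with 9.69% having more, and Rarb had 0.767, with 26.2% having more. Of the 25 vWAT estradiol peaks in these genes, 24 were absent from the vehicle list, 3 were in scWAT and 1 was in Liver. Over the 1500 vWAT estradiol peaks inside all genes of at least 300 kb, 91.4% were absent from the vehicle list, 36.3% were in scWAT and 7.33% in Liver. In Liver, Thrb had 1.58 peaks per 100 kb and Rora 1.36, against a median of 0.467, and Rarb had 0.614. Both tissues thus listed many peaks inside Thrb and Rora, and the overlap between the vWAT and Liver lists was low there as in long genes at large. Most of the Liver peaks inside Thrb and inside Rora had a −log10 q-value below 2, the lowest being 0.39 in each gene. In the whole Liver list 46.4% of peaks reached 2, beside 89.9% of the vWAT estradiol list. Densities and overlaps in long genes were not counted again with that minimum.

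**Figure D5:**
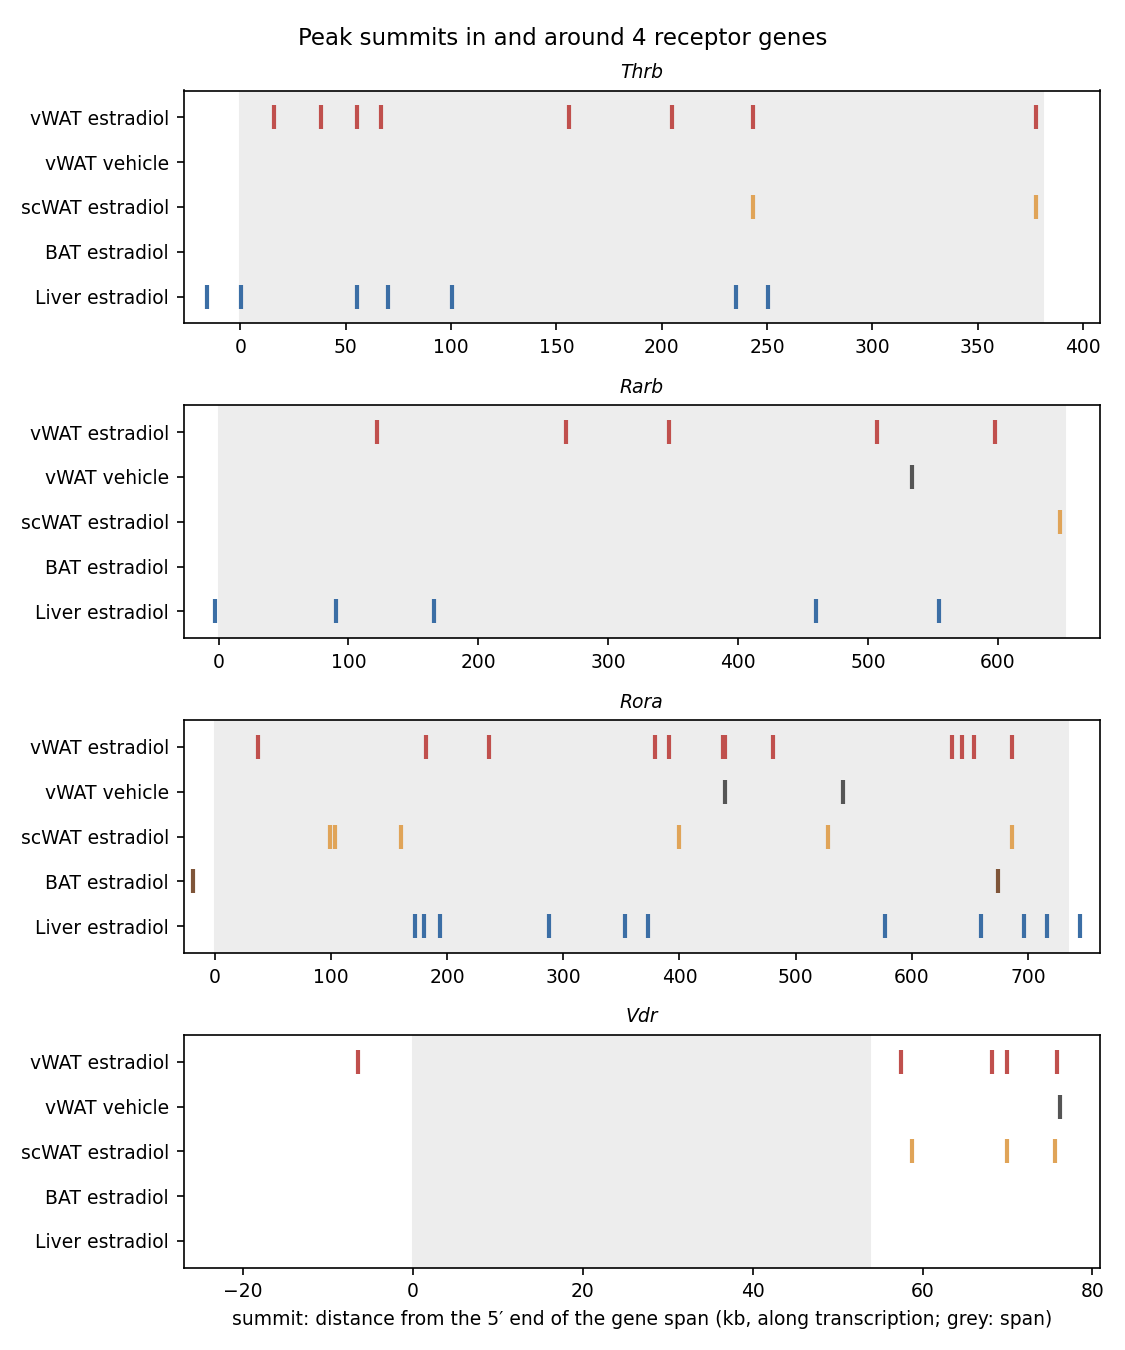
Positions of ERα peak summits in the 5 lists (rows) in and around Thrb, Rarb, Rora and Vdr (x axis, kb from the 5′ end of the gene span along transcription, grey for the span). Thrb and Rora carry many vWAT estradiol and Liver peaks with few at the same place, and all Vdr peaks lie outside the span and in vWAT or scWAT.

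Genes around the receptors were described in the same way. Of the 14 other nuclear receptors, 13 had a peak in vWAT with estradiol (70.1% by span), 11 with vehicle (47.5%), 13 in scWAT (68.6%), 9 in BAT (34.9%) and 12 in Liver (78.9%). Among them, the vWAT estradiol enrichment reached 15.3 at Pgr, the progesterone receptor gene and a classical estrogen target, and 14.1 at Esrra, the ERRα gene. Of 22 genes that make, carry or break down receptor ligands, 17 had a peak in vWAT with estradiol (63.7% by span) and 4 with vehicle (47.3%). The counts for these 22 were 12 in scWAT (63.0%), 2 in BAT (30.7%) and 15 in Liver (69.2%). The strongest in vWAT with estradiol were Rdh10, a retinol dehydrogenase gene (8.78), Cyp27a1, a sterol hydroxylase gene (7.71), and Aldh1a3, a retinaldehyde dehydrogenase gene (7.70), the latter pair with no vehicle peak. All 14 target genes of retinoid, LXR and PPAR receptors had a peak in vWAT with estradiol (65.5% by span), 10 with vehicle (47.1%), 13 in scWAT (64.5%), 8 in BAT (30.5%) and 11 in Liver (70.9%). Fgf21 (15.2), Srebf1 (14.5) and Plin2 (13.9), genes of fasting, lipogenesis and lipid droplets, were the strongest of them.

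The tissue labels were set against peaks at marker genes, which do not measure expression. A peak was found in the Liver list at 5 of 6 hepatocyte markers, all but Ttr, against 1 in vWAT with estradiol, 1 in scWAT and 0 in BAT and in vWAT with vehicle. Genes of like span gave 69.5% in Liver, 64.4% in vWAT with estradiol, 63.7% in scWAT, 30.3% in BAT and 48.1% with vehicle. Of 5 adipocyte markers, 5 had a peak in vWAT with estradiol (64.0% by span), 4 in scWAT (63.4%), 1 in BAT (29.2%) and 3 in Liver (68.7%). Of 5 brown fat markers, 3 had a peak in BAT (35.04% by span) and 3 in vWAT with estradiol (66.7% by span), so their number does not set BAT apart. Ucp1 and Cidea, with peaks in vWAT with estradiol, had none in BAT, and Zic1 and Lhx8 had a peak in BAT only. Macrophage markers had peaks at 4 of 5 genes in vWAT with estradiol (68.0% by span) and at 1 with vehicle (47.1%). For mesothelium markers the counts were 4 of 5 (66.0%) and 2 (49.9%). Endothelial markers had peaks at 2 of 5 genes under both treatments (71.5% with estradiol and 48.1% with vehicle by span). The part of these other cell types in the receptor genes' peaks was not tested.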

How the data were processed

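The series comprises 21 samples, of which the 12 ERα ChIP-seq libraries of 5 groups, as read from the sample labels, were analysed through 1 deposited peak list per group. RNA-seq and H3K27ac libraries of vWAT were not used here. Treatment details (dose, route, time), the peak caller with its threshold and control, and the way libraries were joined were not given in the sources used here. Build mm10 was used, and tools included HOMER and BWA 0.7.12, per the submitters' processing notes. The authors deposited, per peak, a score, a summit position, a −log10 p-value, a −log10 q-value and an enrichment (a fold ratio over an unstated background). The deposited score equalled the −log10 p-value multiplied by 10 and truncated for at least 99.9944% of peaks in every list. Lists of equal length were taken by p-value, and a stricter list used a −log10 q-value of at least 2.

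Peaks on chromosomes 1 to 19 and X were assigned to every protein-coding gene whose span, widened by 25 kb, held the summit, so neighbours can share a peak. The gene table gives no exons, so exonic and intronic peaks were not told apart. Shares have 95% Wilson intervals. The like-span value is the mean, over the 35 genes, of the share in each gene's bin among 20 bins of span. Starts and promoters were those listed by RefSeq for 17274 genes. Assignment and overlap were tested on simulated data. Computation used scipy 1.17.1, pandas 2.3.3, numpy 2.4.6, matplotlib 3.10.9 and Python 3.11.15.

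The 35 genes and all lists were chosen with earlier results of these data known. All 35 genes were accounted for, with values in every list for the 12 with the largest vWAT estradiol enrichment, the 5 largest in each other list, and those with a vehicle-only peak or peaks in all 5 lists. Up to 3 genes of each other list were named by vWAT estradiol enrichment. A gene that this rule gives is not reported here. The genes listed in Liver alone, the long genes, the shares by nearest listed start, the merged loci, the sets of strong peaks, the Vdr map, the promoter windows printed and the motifs with gaps of 2 and 5 bases were chosen after values or sequences were seen.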

Additional observations from a re-analysis of the deposited data

How the results depend on the processing

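Of 67 values under other settings, 41 stayed within the limit (1.5 times for a count, the Wilson interval for a share) and 26 moved. The limit sets a value against its main setting only, not against genes of like span. The cause of a move was not tested beyond what a setting does by construction. With summits inside the span only, the genes with a peak numbered 13 in vWAT with estradiol, 4 with vehicle, 10 in scWAT, 5 in BAT and 19 in Liver, beside 13.2, 7.03, 12.03, 5.30 and 15.5 by span. With every list held to 5193 peaks they numbered 14 in vWAT with estradiol, beside 11.1, and 15 in scWAT, beside 10.8. In the main setting these 2 counts were 23 and 21, below the 23.7 and 23.4 by span. At 5193 peaks the others were 14 with vehicle, 11 in BAT and 17 in Liver, beside 13.7, 11.7 and 13.3. With each peak given to its nearest gene only, the genes with a peak numbered 6 with vehicle and 6 in BAT, beside 10.8 and 7.49. In BAT a window of 100 kb gave 20 and the q-value minimum gave 5, beside 19.7 and 5.24 by span. The genes with a peak in Liver alone numbered 3 with the q-value minimum and 4 at equal list length, beside 1.74 and 2.14 by span. All 3 of the former and 2 of the latter were among the 7 genes of the main setting. The count was 7 inside the span and 7 within 5 kb, beside 4.24 and 3.31 by span. Only 3 and 4 of the genes of the main setting remained there. With the nearest gene only the count was 10, beside 3.80, and all 7 genes of the main setting remained. A window of 100 kb gave 6, beside 1.65, and 4 of the 7 remained. With summits within 100 bp in place of overlap, 15.6% of vWAT estradiol peaks at the receptor genes were found with vehicle, 44.4% of vehicle peaks with estradiol, 29.9% of vWAT estradiol peaks in scWAT and 13.0% in Liver, and 83.9% of Liver peaks in no other estradiol list. Over all peaks these shares were 15.4%, 43.0%, 34.2%, 13.2% and 82.5%. With both vWAT lists held to 7400 peaks the shares were 52.4% with vehicle and 40.7% of vehicle peaks with estradiol, and with every list held to 5193 peaks they were 66.7% in scWAT, 33.3% in BAT and 46.7% in Liver. In the same order, the shares over all peaks were 39.8%, 40.1%, 66.2%, 31.1% and 33.6%. The cut vWAT estradiol lists held fewer than 77 peaks at the receptor genes. How many they held is not given here, and the shares from them have no interval. A reciprocal overlap of 50% gave 19.5% in Liver, beside 16.9% over all peaks. Within 5 kb of a gene end lay 37.7% of vWAT estradiol and 51.8% of scWAT peaks at the receptor genes, beside 35.5% and 42.7% over all peaks. No paired analysis was possible because each group had 1 peak list and no values per library, and for the same reason no replicate was left out in turn. The depth of the reads is unknown, and library number and depth can set a list's length, so a gene without a peak is a gene not listed, not one without ERα.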

Other observations

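In the Liver list, 4183 of its 21411 peaks (19.5%) shared the enrichment of 3.33, with a median −log10 q-value of 1.29, and 10 of the 87 Liver peaks at the receptor genes were among them. The most frequent enrichment held 7.74% of the BAT list, 3.19% of the scWAT list, 2.30% of the vWAT estradiol list and 2.24% of the vWAT vehicle list. These counts were made after the values were seen.

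Over all promoter windows, the share with GGTCA under a peak against elsewhere was 41.2% against 40.4% in vWAT with estradiol, 37.2% against 41.0% with vehicle, 40.7% against 40.5% in scWAT, 37.4% against 40.7% in BAT and 39.4% against 40.7% in Liver. A peak overlapped 5 of the 43 windows of the receptor genes in vWAT with estradiol, 3 with vehicle, 2 in scWAT, 0 in BAT and 11 in Liver, beside 15.0%, 12.9%, 14.7%, 5.64% and 17.3% of all windows.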
